A study of Homo sapiens with 4 samples.

Results

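Imprinted genes were examined in LNCaP-derived prostate cancer cells in which a transcriptional activator is brought to methylated DNA. The members are 40 genes that are known to be imprinted in at least 1 human tissue. They were chosen by name and not by a cut-off on their values, though with earlier results of these data known. All 40 were paired with at least 1 probe, of 19483 genes that could be named on the array, and together they had 53 of its 34127 probes. SLC22A18 was found under its newer symbol, SLC67A1.

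In methyl-CpG targeted transcriptional activation, or MeTA, the activation domain of NFκB is fused to a methyl-CpG-binding domain, the construct NFκB (AD)-MBD. TR9_MeTA14 and TR15_MeTA5 are stable lines made from LNCaP, a human prostate cancer cell line, by way of the Tet repressor-expressing lines TR9 and TR15, and tetracycline switches the construct on in them. RNA came from each line kept in tetracycline over 4 days (+Tet) and from its untreated counterpart (-Tet), and each of these 4 conditions was hybridized to 1 single-colour array. All 4 conditions share the LNCaP background, the repressor and the integrated construct, and no tetracycline-treated line without the construct was analysed here, so tetracycline itself and the construct cannot be told apart.

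Imprinted genes are expressed mainly or only from the copy inherited from 1 parent. Their clusters are governed by control regions that carry DNA methylation on 1 parental copy and none on the other, and some of these regions are promoters, whereas others act at a distance as insulators or through a long noncoding RNA. A normal cell therefore holds a methylated copy at each such region, and in cancer cells these regions can gain or lose methylation. DNA methylation was not part of the data analysed here.

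Signals are Agilent processed signals in arbitrary units. Fold changes were computed after each array was scaled on its 75th percentile. Values for 4 arrays are given throughout in the order untreated and treated TR9_MeTA14, then untreated and treated TR15_MeTA5, and in this order the percentiles were 617, 777, 367 and 542. Between 20560 and 24217 probes per array were well above background. Where the dimmer of 2 arrays was not, the fold change is a lower bound, written "at least". Replicate spots within an array gave an SD of 0.0873 for a log2 ratio. The spread between cultures is unknown, so that the fold changes within a line have no test. The 10 prostate luminal markers examined were well above background on all 4 arrays, whereas of 9 markers of other cell types PTPRC, VWF and COL1A1 were so on all 4, CD3E on 3, PECAM1 on the 2 treated arrays, and COL3A1, DCN, KRT5 and TP63 on none. The summed processed signal of the 9 was between 470 and 1089.

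Promoter sequences are shown first for 5 members on which the results turn. H19 and MAGEL2 were below background without tetracycline and above it with tetracycline, NDN and SNURF lie near MAGEL2 and carry imprinted promoters but were expressed at all times, and DIO3 moved in opposite directions in the 2 lines. Each sequence is the 250 bases before the start of transcription, 5′ to 3′ on the strand of the gene, from RefSeq on GRCh38.p14. Capitals mark every CG, the dinucleotide that can be methylated, which reads the same on both strands.
H19: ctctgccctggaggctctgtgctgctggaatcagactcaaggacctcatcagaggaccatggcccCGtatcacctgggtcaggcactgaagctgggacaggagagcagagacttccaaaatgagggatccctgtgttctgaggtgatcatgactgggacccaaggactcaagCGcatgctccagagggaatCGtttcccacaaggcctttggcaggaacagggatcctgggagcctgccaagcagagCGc
MAGEL2: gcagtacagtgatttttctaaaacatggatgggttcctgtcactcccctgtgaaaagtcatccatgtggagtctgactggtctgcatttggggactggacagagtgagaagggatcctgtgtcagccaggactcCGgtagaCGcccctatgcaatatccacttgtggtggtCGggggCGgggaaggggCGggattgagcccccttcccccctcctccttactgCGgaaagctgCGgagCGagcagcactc
NDN: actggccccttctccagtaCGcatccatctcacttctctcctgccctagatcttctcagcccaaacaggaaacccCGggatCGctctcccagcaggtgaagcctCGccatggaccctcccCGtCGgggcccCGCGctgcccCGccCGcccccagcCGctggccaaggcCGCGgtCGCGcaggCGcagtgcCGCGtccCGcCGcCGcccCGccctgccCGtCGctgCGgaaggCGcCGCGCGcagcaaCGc
SNURF: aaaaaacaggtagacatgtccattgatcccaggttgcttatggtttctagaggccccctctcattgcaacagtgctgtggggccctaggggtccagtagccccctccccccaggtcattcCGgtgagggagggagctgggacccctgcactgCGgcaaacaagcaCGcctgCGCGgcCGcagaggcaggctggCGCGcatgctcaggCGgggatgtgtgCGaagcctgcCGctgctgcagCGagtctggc
DIO3: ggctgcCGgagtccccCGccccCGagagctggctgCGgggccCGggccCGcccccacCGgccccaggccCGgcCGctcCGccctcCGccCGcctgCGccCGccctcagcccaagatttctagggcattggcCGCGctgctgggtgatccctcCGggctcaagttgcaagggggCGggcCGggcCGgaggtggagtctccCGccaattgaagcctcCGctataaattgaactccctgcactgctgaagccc

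The H19 sequence is chr11:2001267-2001516 on the minus strand and holds 4 CG. MAGEL2 (chr15:23647868-23648117, minus strand) holds 8, and NDN (chr15:23687306-23687555, minus strand) holds 30. The SNURF sequence (chr15:24954737-24954986, plus strand), from which SNRPN is transcribed as well, holds 12, and that of DIO3 (chr14:101561245-101561494, plus strand) holds 22. Thus, the promoters of H19 and MAGEL2 are the CG-poor ones of the 5. These 5 were picked by their signals, and a link between CG content and response was not tested. CG were also counted over the whole 300-base window of the table, which runs on for 50 bases past the start. Of 27305 genes, 67.5% had at least as many CG as H19 and 60.3% as many as MAGEL2. The share was 47.9% for SNURF, 29.6% for DIO3 and 16.5% for NDN. The median of these 27305 genes was 16 CG, whereas over the genes named on the array it was 25, with a lower quartile of 12. H19, with 6, and MAGEL2, with 9, lie below that quartile.

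The fold changes of the imprinted genes were first counted. In TR9_MeTA14, 32 members could be compared. Of these, 8 were at least 2-fold higher with tetracycline (25%), where 16.8% of all genes compared were so, and 6 were at least 2-fold lower (18.8%), where 15.1% of all genes were. In TR15_MeTA5, 6 of 32 were at least 2-fold higher (18.8%), beside 9.78% of all genes, and 0 were at least 2-fold lower, beside 2.21%. H19, IGF2, KCNQ1 and MAGEL2 were higher in both lines. These are 4 of the 31 members compared in both (12.9%), beside 8.21% of all genes, and 0 members were lower in both, beside 0.838%. The number higher in TR15_MeTA5 was 10 with spike-in scaling, 7 of them in both lines, and 3 when probes had to be above background on every array, with 2 in both. Shares of all genes were not counted under these settings, so these counts do not set members apart from other genes. The median log2 change of the 28 members expressed above background in all 4 conditions was -0.04 in TR9_MeTA14 and -0.06 in TR15_MeTA5, and over all genes of that kind it was -0.14 and -0.19. The median member thus lay near the median gene.

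In limma with both lines, 1 of 32 members was higher with tetracycline after Benjamini-Hochberg adjustment over all probes, beside 3.22% of all genes, and 0 were lower, beside 0.0138%. That member was H19. At an unadjusted limma p below 0.05 there were 8 of the 32 members, beside 3107 of the 14458 genes tested. This fit has 1 residual degree of freedom, with each line standing as 1 sample of each treatment. Probes entered it when above background on 2 or more arrays, and signals below background were fitted as measured. H19 and MAGEL2, and among genes named further on OCA2, DPPA3, TET1 and NLRP7, entered through their treated arrays alone. Their adjusted p-values are thus not independent of that filter.

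**Figure D1:**
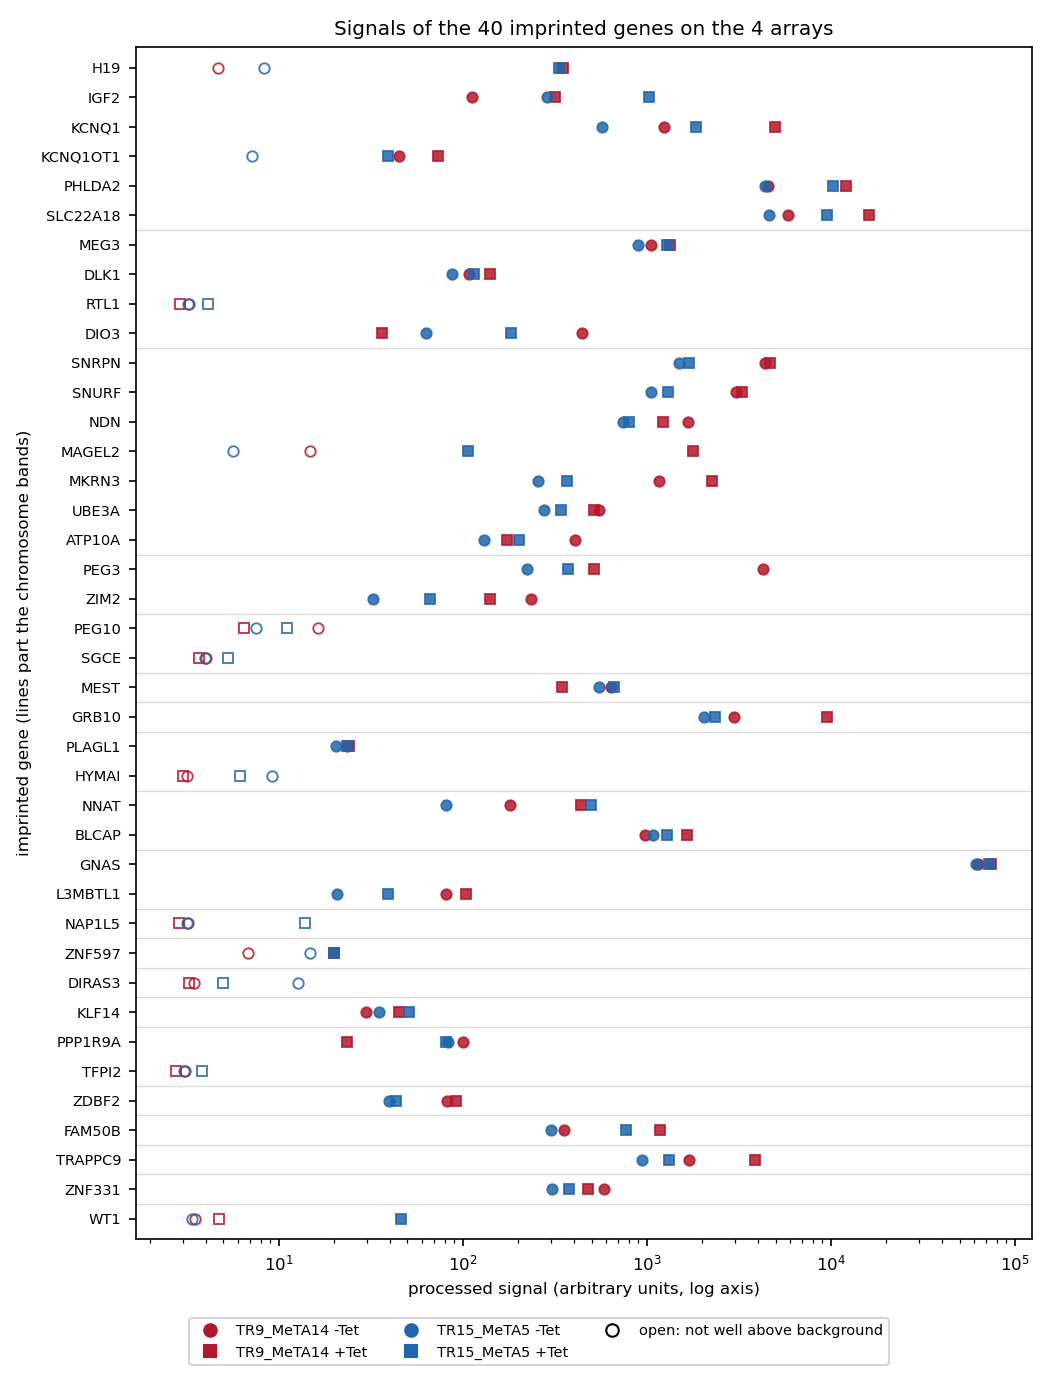
Processed signal of the 40 imprinted genes (arbitrary units, log axis), by the brightest probe of each gene, with red for TR9_MeTA14, blue for TR15_MeTA5, circles without and squares with tetracycline, and open points not well above background. H19 and MAGEL2 go from open circles to filled squares in both lines, and 7 genes have open points only.

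Of the 8 members that were higher in TR9_MeTA14, 5 lie at chromosome band 11p15, and of the 4 higher in both lines, 3 do. Here 2 imprinted clusters are neighbours, that of H19 and IGF2 and that of KCNQ1. H19, a long noncoding RNA made from the maternal copy, had signals of 4.69, 351, 8.29 and 334. Both untreated arrays were below background and both treated arrays were above it. Its signal was at least 18.1-fold higher with tetracycline in TR9_MeTA14 and at least 14.6-fold higher in TR15_MeTA5, that is, higher in 2 of 2 lines (limma, adjusted p = 0.018). This p-value rests on untreated signals below background, which the fit took as measured. The 2 treated lines reached similar scaled levels, 1.36-fold apart.

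IGF2, a fetal growth factor made from the paternal copy, had signals of 111, 318, 285 and 1022. It was expressed on all 4 arrays, and after scaling TR15_MeTA5 was 4.31-fold above TR9_MeTA14 without tetracycline and 4.61-fold above it with tetracycline. With tetracycline it was 2.26-fold higher in TR9_MeTA14 and 2.42-fold higher in TR15_MeTA5 (limma, adjusted p = 0.123). In TR9_MeTA14 the log2 change of IGF2, 1.18, was 0.76 under normexp background correction and so short of the 2-fold cut-off. A second, dim IGF2 probe was above background on 1 array and gave no fold change. H19 and IGF2, which are expressed from opposite parental copies, were thus both higher after induction.

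KCNQ1, a potassium channel subunit, gave 1243, 4950, 571 and 1847, which was 3.17-fold and 2.19-fold higher with tetracycline (limma, adjusted p = 0.111). KCNQ1OT1 is the noncoding RNA that is read against KCNQ1 from the paternal copy and that silences its neighbours in cis. Its signals were 45.1, 73.1, 7.14 and 39.2. It was above background except on TR15_MeTA5 -Tet. The fold change of KCNQ1OT1 was 1.29 in TR9_MeTA14, short of 2-fold. In TR15_MeTA5 it was at least 1.72, and a lower bound cannot show whether the change passed 2-fold. With the untreated signal taken as measured, the log2 ratio in TR15_MeTA5 was 1.89. PHLDA2, a regulator of placental growth, gave 4547, 12136, 4378 and 10257, 2.12-fold and 1.58-fold higher (limma, adjusted p = 0.230). SLC22A18, a membrane transporter, gave 5820, 16130, 4588 and 9510, 2.20-fold and 1.40-fold higher (limma, adjusted p = 0.257). In both lines, the treated array had the higher scaled signal for all 6 members of the band. The 4 of them that were above background on all arrays had a median log2 change of 1.16 in TR9_MeTA14 and 0.90 in TR15_MeTA5, beside -0.14 and -0.19 over all genes.

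**Figure D2:**
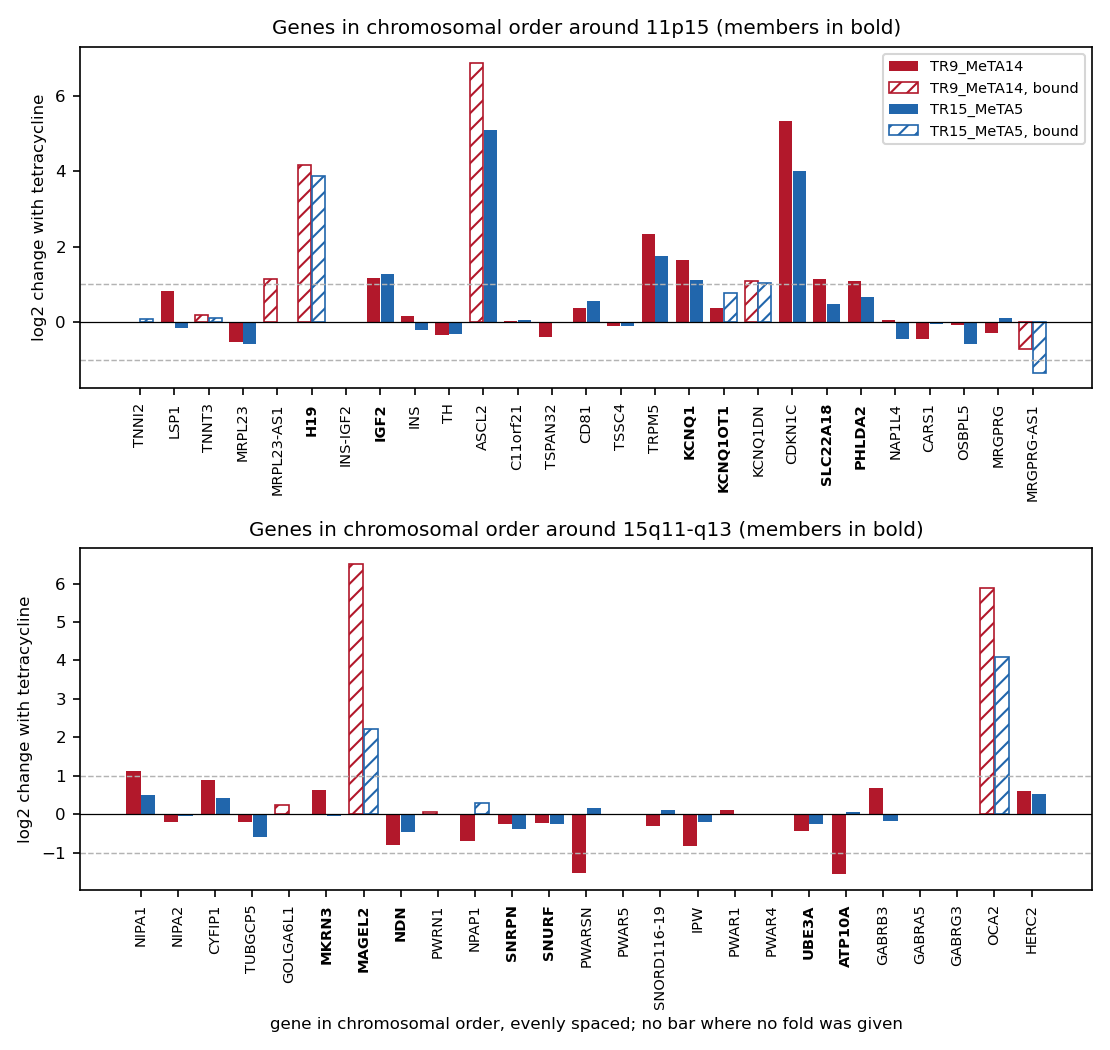
Log2 change with tetracycline for the genes around 11p15 (upper panel) and 15q11-q13 (lower panel) in chromosomal order and evenly spaced, in TR9_MeTA14 (red) and TR15_MeTA5 (blue), with hatched bars for lower bounds and dashed lines at 2-fold. At 11p15, H19, IGF2, ASCL2, TRPM5, KCNQ1, KCNQ1DN and CDKN1C pass 2-fold in both lines, and at 15q11-q13 MAGEL2 stands alone among its imprinted neighbours.

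The genes between these members were then read in chromosomal order, a view chosen after the values of the members were seen. From H19 to PHLDA2 the array names 17 genes, the 6 members and 11 others. Of the 15 with a fold change in each line, 7 passed the cut-off upwards in both (46.7%), beside the 8.21% of all genes, and 0 were at least 2-fold lower in either line. The 7 include H19, IGF2 and KCNQ1, whose values led to this view, so the 46.7% is not independent of that choice. Of the 9 others compared in both lines, 4 passed it. H19 and KCNQ1DN could be compared only because their treated arrays were above background. The 4 others among the 7 were ASCL2, TRPM5, KCNQ1DN and CDKN1C. CDKN1C, an imprinted inhibitor of cyclin-dependent kinases, gave 510, 25870, 1296 and 30640. It was 40.3-fold and 16-fold higher (limma, adjusted p = 0.023), so that this neighbour changed more than KCNQ1, PHLDA2 or SLC22A18 in both lines. ASCL2, an imprinted transcription factor of the trophoblast, gave 17.4, 2595, 68.0 and 3436, which was at least 119-fold and 34.2-fold higher (limma, adjusted p = 0.021). TRPM5, a cation channel of taste cells, was 5.02-fold and 3.36-fold higher, and KCNQ1DN at least 2.15-fold and at least 2.05-fold.

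The changes were not even along the band. INS, TH, C11orf21 and TSSC4 lie between members and had log2 changes between -0.34 and 0.15 in both lines. Of the 5 named genes on either outer side, 0 were 2-fold higher in both lines. Among these 10, MRPL23-AS1, next to H19, was at least 2.22-fold higher in TR9_MeTA14, with 4.01, 43.3, 7.82 and 16.7, and it had no fold change in TR15_MeTA5.

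At 15q11-q13, the region lost in Prader-Willi and Angelman syndromes, the picture was different. MAGEL2, which encodes a MAGE family protein and is made from the paternal copy, had signals of 14.7, 1782, 5.62 and 106. Both untreated arrays were below background. The gene was at least 91.5-fold higher with tetracycline in TR9_MeTA14 and at least 4.66-fold higher in TR15_MeTA5 (limma, adjusted p = 0.063), and the treated signal of TR15_MeTA5 was 11.7-fold below that of TR9_MeTA14 after scaling. MAGEL2 passed an adjusted limma p of 0.05 under quantile normalization, with the percentile taken over spots, with spike-in scaling and without the filter on dim probes.

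Its neighbours with methylated imprinted promoters were expressed without tetracycline and stayed within 2-fold. NDN, a growth suppressor also known as necdin, gave 1682, 1224, 744 and 800, with log2 changes of -0.79 and -0.46. SNRPN, a spliceosomal protein, gave 4392, 4653, 1493 and 1691, with -0.25 and -0.38. SNURF, encoded upstream on the same transcript, gave 3044, 3277, 1051 and 1300, with -0.23 and -0.26. MKRN3, a ring finger protein that restrains the onset of puberty, gave 1161, 2256, 255 and 368, with 0.63 and -0.04. None of these 4 passed the limma test (adjusted p between 0.277 and 0.609).

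The 2 members at 15q11-q13 that are expressed from the maternal copy lack a methylated promoter of their own. UBE3A, a ubiquitin ligase, gave 551, 516, 275 and 343 and was within 2-fold in both lines. ATP10A, a phospholipid flippase, gave 406, 174, 130 and 201, 2.93-fold lower in TR9_MeTA14 and 1.05-fold higher in TR15_MeTA5 (limma, adjusted p = 0.418). OCA2, the non-imprinted pigmentation gene beyond the cluster, gave 3.99, 1142, 3.91 and 388. It was at least 58.7-fold and at least 17.0-fold higher (limma, adjusted p = 0.018). Of the 8 other named genes inside the cluster, 0 were 2-fold higher in either line, but only 4 had a fold change in both. Among these genes, PWARSN was 2.88-fold lower in TR9_MeTA14 and 1.13-fold higher in TR15_MeTA5.

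**Figure D3:**
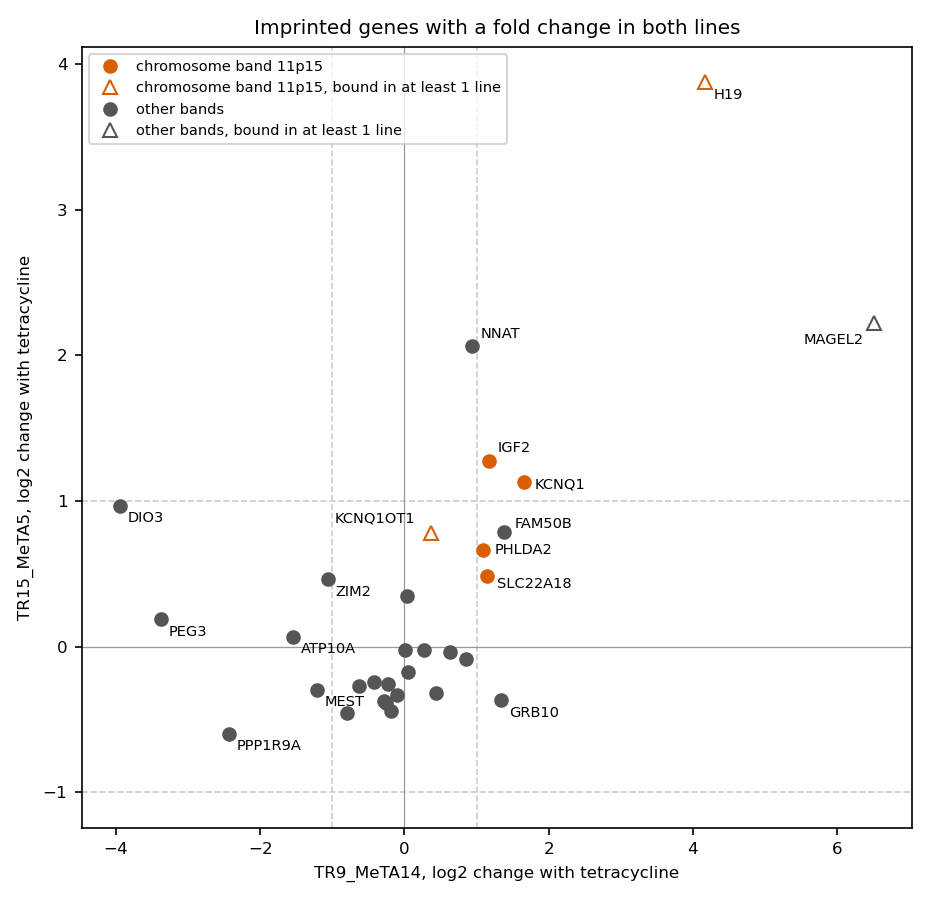
Log2 change with tetracycline in TR9_MeTA14 (horizontal) against TR15_MeTA5 (vertical) for the 31 imprinted genes with a fold change in both lines, orange for 11p15 and grey for other bands, triangles where a value is a lower bound, dashed lines at 2-fold. H19, MAGEL2, IGF2 and KCNQ1 lie past 2-fold in both, and DIO3 and PEG3 lie far to the left with TR15_MeTA5 values of 0.97 and 0.19.

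At 14q32, the cluster of DLK1, MEG3, RTL1 and DIO3, the probes of 1 gene did not agree. MEG3, a long noncoding RNA made from the maternal copy, had 2 probes. The brighter one (A_32_P40547, for NR_002766) gave 1058, 1343, 890 and 1293, with log2 changes of 0.01 and -0.03. The dimmer one (A_33_P3255434, for NR_003531) gave 24.3, 120, 29.7 and 344, which was 3.92-fold and 7.83-fold higher with tetracycline (limma, adjusted p = 0.066). MEG3 thus was level by 1 probe and higher in 2 of 2 lines by the other, and the 2 probes name different transcripts.

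DLK1, a Notch-like membrane ligand that is made from the paternal copy, showed a smaller split. Its brighter probe gave 108, 141, 87.5 and 115 and was within 2-fold. The dimmer gave 14.9, 21.3, 15.8 and 87.4, above background on the 2 treated arrays alone, and was higher by at least 1.10-fold in TR9_MeTA14 and by 3.75-fold or more in TR15_MeTA5. RTL1, a retrotransposon-derived gene, was below background on all 4 arrays, with signals between 2.91 and 4.11.

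DIO3, the deiodinase that inactivates thyroid hormone, had signals of 444, 36.2, 63.4 and 183. The untreated array was the higher one in TR9_MeTA14 and the lower one in TR15_MeTA5. It was 15.5-fold lower with tetracycline in TR9_MeTA14 and 1.95-fold higher in TR15_MeTA5 (limma, adjusted p = 0.521). The second probe gave 26.8, 10.4, 4.16 and 7.54, at least 2.42-fold lower in TR9_MeTA14, and no fold change could be given in TR15_MeTA5. The difference between the lines could not be tested with 4 arrays.

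**Figure D4:**
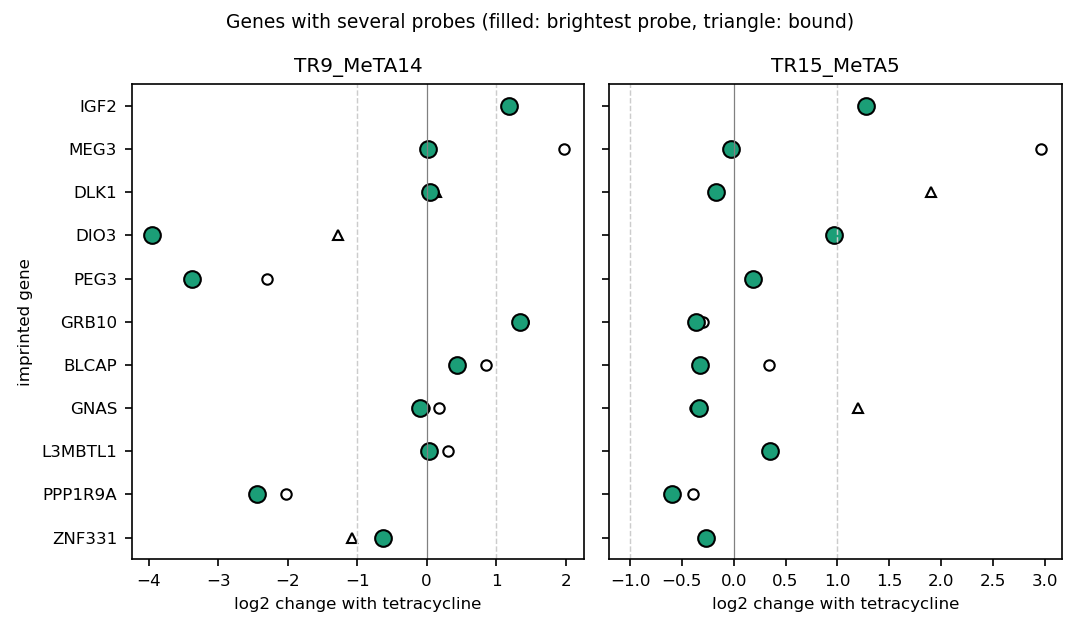
Log2 change with tetracycline for each probe of the 11 imprinted genes with several probes, in TR9_MeTA14 (left) and TR15_MeTA5 (right), with large filled points for the brightest probe, small open points for the others and triangles for lower bounds. The probes of PPP1R9A and GRB10 lie close together, and those of MEG3 lie apart in both lines.

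The members that were lower after induction were all lower in TR9_MeTA14 alone at the 2-fold cut-off. PEG3, a zinc finger protein of the 19q13 cluster that is made from the paternal copy, gave 4291, 519, 222 and 374. Untreated TR9_MeTA14 stood far above the other 3 arrays. PEG3 was 10.4-fold lower with tetracycline in this line and 1.14-fold higher in TR15_MeTA5 (limma, adjusted p = 0.371), and after induction the 2 lines were 1.03-fold apart. The second PEG3 probe was 4.94-fold lower in TR9_MeTA14, with 113, 28.8, 13.5 and 16.7.

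ZIM2, which shares its promoter region with PEG3, gave 234, 141, 32.3 and 66.0, 2.09-fold lower in TR9_MeTA14 and 1.38-fold higher in TR15_MeTA5. The call for ZIM2 was lost with spike-in scaling (log2 change -0.93) and with normexp (-0.78). MEST, a hydrolase-like protein expressed in the mesoderm, gave 641, 348, 551 and 663, 2.32-fold and 1.23-fold lower. PPP1R9A, a neuronal scaffold of protein phosphatase 1, gave 100.5, 23.3, 83.0 and 81.2, 5.42-fold and 1.51-fold lower, and its second probe was 4.08-fold and 1.31-fold lower. For PPP1R9A the TR9_MeTA14 log2 change of -2.44 was -0.89 under normexp.

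Markers of the parental cell type were lower in both lines by their median, and further in TR9_MeTA14. Of the 10 prostate luminal markers, 7 were at least 2-fold lower with tetracycline in TR9_MeTA14, beside 15.1% of all genes. In TR15_MeTA5 0 were, beside 2.21%. The median log2 changes were -1.80 and -0.62. In TR15_MeTA5 the log2 changes ran from -0.98 for KLK2 to -0.35 for KRT8. KLK3, which encodes prostate-specific antigen, gave 144067, 47017, 135330 and 123470, and after scaling it was 3.86-fold and 1.62-fold lower. The summed processed signal of the 10 was 315599, 142712, 245714 and 230250. The part of this marker change in the lower signals of DIO3, ATP10A, PEG3, ZIM2, MEST and PPP1R9A was not tested.

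**Figure D5:**
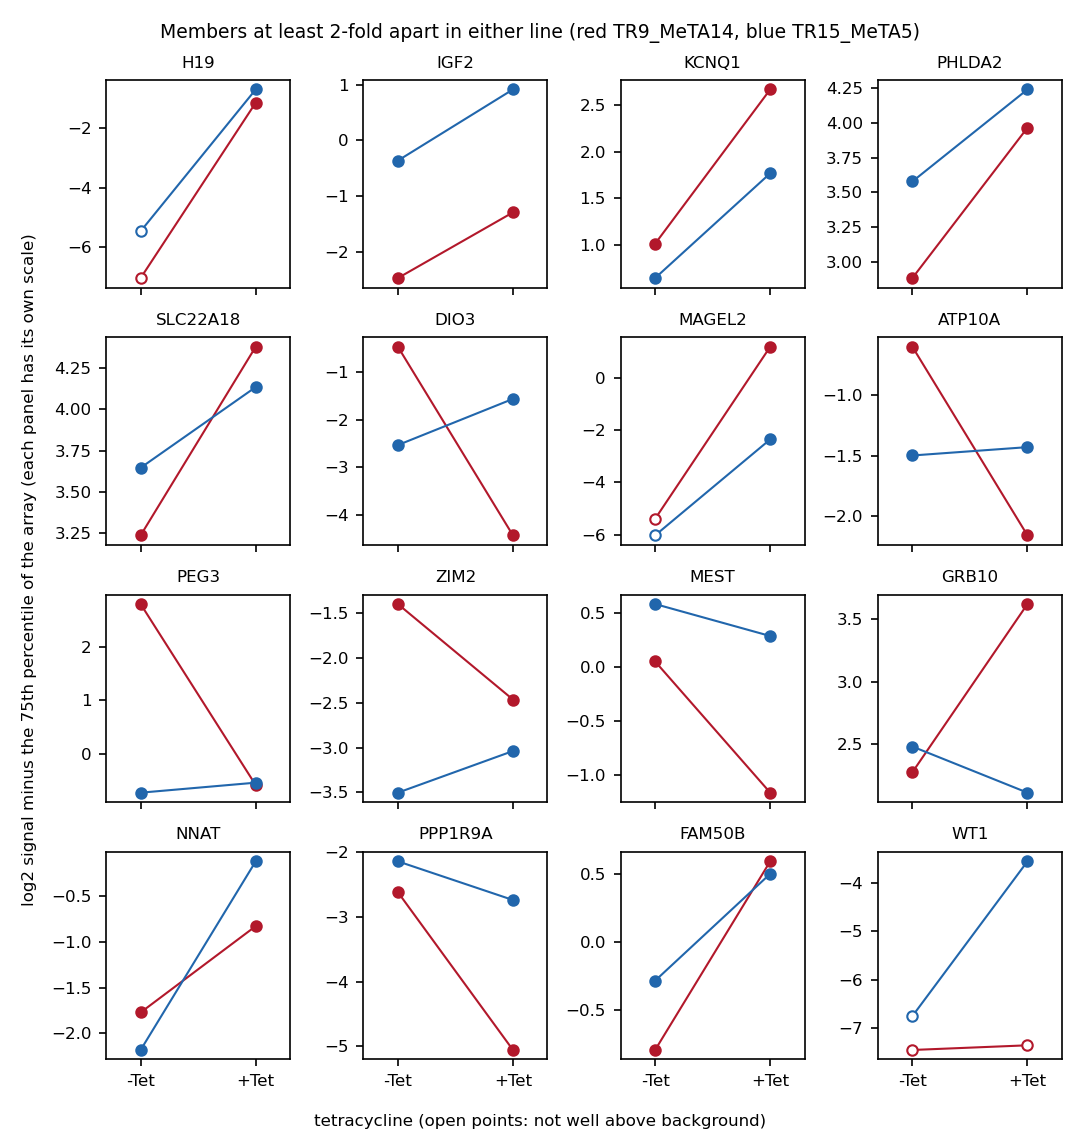
Scaled log2 signal (log2 processed signal minus the 75th percentile of the array) without and with tetracycline for the 16 members at least 2-fold apart in either line, red for TR9_MeTA14 and blue for TR15_MeTA5, with open points not well above background and a separate vertical scale in each panel. Both lines rise for H19, IGF2, KCNQ1 and MAGEL2, with MAGEL2 ending 11.7-fold apart, and the lines cross or converge for DIO3, PEG3 and ZIM2.

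Several members were higher in 1 line. NNAT, a small membrane proteolipid also known as neuronatin, gave 181, 438, 80.8 and 499, 1.92-fold higher in TR9_MeTA14 and 4.18-fold higher in TR15_MeTA5 (limma, adjusted p = 0.171). It lies in an intron of BLCAP, whose brighter probe gave 976, 1660, 1086 and 1285 and was within 2-fold in both lines. FAM50B, an imprinted retrogene at 6p25, gave 356, 1171, 301 and 767, 2.61-fold and 1.72-fold higher (limma, adjusted p = 0.192). Both genes were higher with tetracycline in 2 of 2 lines, though past 2-fold in 1.

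GRB10, an adaptor that dampens insulin and growth factor signalling, gave 2991, 9531, 2048 and 2347, 2.53-fold higher in TR9_MeTA14 and 1.29-fold lower in TR15_MeTA5. Its second probe gave 2.61-fold higher and 1.23-fold lower, so that the 2 probes had the same pattern. WT1, the Wilms tumour transcription factor, gave 3.51, 4.72, 3.39 and 46.4. It was above background on TR15_MeTA5 +Tet alone, at least 2.03-fold higher there, and this bound, 1.02 on the log2 scale, was 0.93 under quantile normalization and 0.55 with normexp, short of 2-fold in both. TRAPPC9, a subunit of a vesicle tethering complex, gave 1695, 3865, 944 and 1314 and was 1.81-fold higher in TR9_MeTA14.

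GNAS, which encodes the stimulatory G protein alpha subunit and several other products from imprinted alternative promoters, differed by transcript. The brightest GNAS probe, for NM_001077489, gave 61743 to 74370, and it and a second probe for this transcript were within 2-fold in both lines. The probe for NM_001077490 gave 4.73, 18.8, 3.34 and 52.4, and was at least 2.30-fold higher in TR15_MeTA5 with no fold change in TR9_MeTA14. The probe for NM_016592 gave 18.6, 26.5, 14.6 and 14.9, 1.13-fold higher in TR9_MeTA14. Of these, the probe for NM_001077490 went from below background to above it in both lines.

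The other expressed members stayed within 2-fold in both lines. These were PLAGL1, a zinc finger transcription factor (signals of 20.5 to 24.1), L3MBTL1, a chromatin compactor (20.8 to 104), KLF14 (29.7 to 50.7), ZDBF2 (39.8 to 91.3) and ZNF331 (307 to 588). The second probe of ZNF331 was above background on TR9_MeTA14 -Tet alone and was at least 2.11-fold lower with tetracycline in that line. ZNF597, another zinc finger gene, gave 6.81, 19.9, 14.8 and 19.8, just above background on the treated arrays. In all, 15 of the 28 members well above background on all 4 arrays were within 2-fold in both lines.

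The remaining 7 members were below background on all 4 arrays. Besides RTL1, these were PEG10 (6.45 to 16.4), SGCE (3.68 to 5.31), HYMAI (3.02 to 9.23), NAP1L5 (2.86 to 13.8), DIRAS3 (3.26 to 12.7) and TFPI2 (2.77 to 3.82). PEG10 and SGCE share 1 imprinted promoter region at 7q21, HYMAI is a noncoding RNA beside PLAGL1, and DIRAS3 and TFPI2 are known as tumour suppressors that are silenced in cancers. For none of these could a change be measured at this signal. Over all genes, 19.6% were below background on all 4 arrays, and 17.5% of the members were. Of the 11 members below background on both untreated arrays, H19, MAGEL2, ZNF597 and WT1 were above it with tetracycline in at least 1 line, and over all genes this was so for 1487 of 5306 (28.0%).

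The 2 lines were also compared without tetracycline. In uninduced TR15_MeTA5, 1 of 29 members was at least 2-fold higher than in uninduced TR9_MeTA14, beside 8.17% of all genes, and 5 were at least 2-fold lower (17.2%), beside 5.19%. IGF2 was 4.31-fold higher in TR15_MeTA5. PEG3 was 11.5-fold lower, ZIM2 4.31-fold, DIO3 4.17-fold, MKRN3 2.71-fold and L3MBTL1 2.30-fold. All 5 are made from the paternal copy, as is IGF2, and so are 16 of the 29 members compared here. PEG3 and ZIM2 share a promoter region, and a link to the parental copy was not tested. PEG3, ZIM2 and DIO3 were also lower with tetracycline in TR9_MeTA14, but both comparisons use the same single untreated TR9_MeTA14 array. The count of lower members was 16 with spike-in scaling, which moved the median log2 difference of all probes above background from 0.13 to -0.92. The share of all genes was not counted under that scaling.

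Members were next split by textbook knowledge of where the imprint lies, in classes written with earlier results of these data known. Of 23 members whose promoter carries the methylated imprint, 18 could be compared in both lines and 2 were at least 2-fold higher in both, H19 and MAGEL2. Of 14 members without a methylated promoter of their own, 12 could be compared and 2 were higher in both (16.7%), IGF2 and KCNQ1. Of the members expressed from the paternal copy, 2 of 17 were higher in both lines (11.8%), and of those expressed from the maternal copy 2 of 10 (20%). With 2 genes in each, these classes were not compared further.

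Of the 40 members, 29 had promoters in the RefSeq table. Taking the promoter with the most CG for each gene, the median was 26 CG per 300 bases, with a range of 6 to 50, and over all genes named on the array it was 25. The members at least 2-fold higher in either line that had a promoter entry, 6 of 10, had a median of 22, and the 839 genes higher in both lines with a promoter entry had a median of 27. These medians rest on unlike criteria, either line and both lines, and were not compared. Members with many CG were found on both sides. GRB10 had 49 CG, and UBE3A and GNAS, which stayed within 2-fold by their brightest probes, had 44 and 43.

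Related genes outside the members were read the same way. Of 44 other imprinted genes listed, 37 had a probe, and of the 23 with a fold change in each line 2 passed 2-fold upwards in both (8.70%), the 11p15 genes CDKN1C and ASCL2. Of 81 genes that lie beside or between imprinted genes and are not listed as imprinted, 80 had a probe. Of 65 of these compared in both lines, OCA2, TRPM5, PXDC1 and DPRX were higher in both (6.15%) and UTRN and HERC3 lower. PXDC1, which lies beside FAM50B, was 14.7-fold higher in TR9_MeTA14 and at least 8.25-fold higher in TR15_MeTA5 (limma, adjusted p = 0.026).

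Factors that set, keep or otherwise act on imprints were 28 genes, of which 21 could be compared in both lines. DPPA3, TET1, KHDC3L, NLRP7 and EHMT1 were at least 2-fold higher in both (23.8%), beside the 8.21% of all genes, and 0 were lower in both. DPPA3, which protects maternal methylation in the zygote, gave 3.29, 167, 3.25 and 279, at least 8.56-fold and at least 12.2-fold higher (limma, adjusted p = 0.015). TET1, a dioxygenase that oxidizes methylcytosine, gave 22.5, 384, 6.95 and 383, at least 13.5-fold and at least 16.8-fold higher (limma, adjusted p = 0.030). NLRP7, a maternal-effect gene of the oocyte, gave 3.30, 515, 5.07 and 602, at least 26.4-fold higher in both lines (limma, adjusted p = 0.014). KHDC3L was at least 1.84 and at least 1.04 higher on the log2 scale, and EHMT1, a histone methyltransferase, 1.75 and 1.07. DPPA3, TET1, KHDC3L and NLRP7 were below background on both untreated arrays, whereas EHMT1 gave 1029, 4352, 1036 and 3205. Those below background could be compared only because they were above it with tetracycline. The list was also chosen with earlier results of these data known, so the share of 23.8% is not independent support.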

How the data were processed

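RNA of TR9_MeTA14 and TR15_MeTA5 with or without tetracycline for 4 days was hybridized to Agilent whole human genome arrays, 1 array per condition. The authors extracted the images with Agilent Feature Extraction (version 9.5.1 in the submitters' processing notes, 10.7.3.1 in the file headers) and deposited 1 file of spot intensity values per array. Of these, the processed signal had been corrected for background inside each array, without scaling across arrays. The table deposited for the whole series held identical intensity values on all 44495 rows.

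Log2 processed signals of the spots of a probe were averaged without outlier spots (between 255 and 344 per array), and the 75th percentile over non-control probes was subtracted, which corresponds to factors of 1.26 in TR9_MeTA14 and 1.48 in TR15_MeTA5. A probe was well above background by the flag of Feature Extraction. Where the dimmer array was not, the fold change was taken against the lowest signal with that flag on that array (15.5, 13.9, 15.4 and 19.2) or against its own signal if higher. No fold change was given where both arrays were below background or the bound was under 1. No spot was saturated. Precision is limited by the number of arrays.

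Gene names came from matching RefSeq accessions to a table on GRCh38.p14 (74.5% of probes matched). The array design was annotated on hg19, and gene order was taken from the table. Each gene was represented by its brightest probe on average, and the cut-off was 2-fold, as in the study. Every member is named. Of the other lists, genes at least 2-fold apart in both lines in the same direction or called by limma were to be named. Both lines were fitted together with limma 3.58.1 (R 4.3.3), blocking on the cell line and using an intensity trend, and p-values were adjusted over the 22808 probes that passed background on 2 or more arrays. The fit was tested on simulated data. Summaries were made in Python 3. Promoter windows that overlap on opposite strands read as reverse complements in all 1872 pairs checked. The members, lists and tests were chosen with earlier results of these data known.

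Alternatives were other scalings (quantile, median, percentile over spots, spike-in), normexp with an offset of 50, the deposited table, all spots, other filters, the mean over probes, plain ratios, other cut-offs, and limma without block or trend. The values of 1 marker gene are not reported here.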

Additional observations from a re-analysis of the deposited data

Results flagged for a closer look

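DIO3 had effects of opposite direction in the 2 lines. The log2 change with tetracycline was -3.95 in TR9_MeTA14 and 0.97 in TR15_MeTA5, from signals of 444 to 36.2 and of 63.4 to 183. With 1 array per condition this difference was not tested. It kept these directions under every scaling tried.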

How the results depend on the processing

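No fold change past 2-fold changed direction under any alternative that was run. The counts that follow are of members only. Shares of all genes were not counted under the alternatives, so these counts do not set members apart from other genes. With spike-in scaling, 10 members were at least 2-fold higher in TR15_MeTA5, 7 in both lines, 16 were lower in uninduced TR15_MeTA5, and limma called 3 members higher. That scaling moved the median log2 change of all probes above background on the 4 arrays to -0.01 for TR9_MeTA14 (otherwise -0.15) and to 0.25 for TR15_MeTA5 (otherwise -0.19). With probes well above background on all 4 arrays only, which leaves out H19, MAGEL2 and WT1, 3 were higher in TR15_MeTA5, 2 in both lines, and limma called 0 higher, with 7 at an unadjusted p below 0.05. Without a filter on dim probes, 2 were lower in TR15_MeTA5, 5 were higher in uninduced TR15_MeTA5, and limma called 3 higher. Limma called 2 higher with quantile normalization and with the percentile over spots. At 3-fold, 3 members were higher and 3 lower in TR9_MeTA14, 3 were higher in TR15_MeTA5, 2 in both lines (H19 and MAGEL2), and 3 were lower in uninduced TR15_MeTA5. At 1.5-fold, 10 were higher and 1 lower in TR15_MeTA5, 7 were higher and 1 lower in both lines, and in uninduced TR15_MeTA5 5 were higher and 9 lower. Of the 4 members higher in both lines, H19, KCNQ1 and MAGEL2 remained so with normexp. The causes of these shifts were not tested. The deposited table holds the same values, so its agreement shows nothing. The mean over the probes of a gene was not run for limma. No replicate could be left out with 1 array per condition. Limma was blocked on the cell line. No paired analysis by replicate number was possible because all labels carry the same experiment number and the groups share fewer than 2 numbers. Signals below background left 7 members without any fold change. They also left H19, KCNQ1OT1, MAGEL2, ZNF597 and WT1 with a lower bound or no fold change in at least 1 line.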
